A study of Homo sapiens with 8 samples.

Results

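Aminoacyl-tRNA synthetases attach each amino acid to its matching transfer RNA, the step that supplies the ribosome with charged substrates. The cytosol and the mitochondrion mostly use enzymes from separate nuclear genes, while GARS1 and KARS1 each encode both forms. Several cytosolic enzymes are held in a multisynthetase complex by scaffold proteins such as AIMP1. Transcription of many cytosolic synthetase genes is known to be raised by ATF4, a transcription factor induced by amino acid shortage and endoplasmic reticulum stress, and muscle tumour cells, like other dividing cells, need a steady supply of charged transfer RNA.

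The genes described here are those whose probe sets carried a single gene symbol of the synthetase form (an amino acid letter followed by ARS, with or without 1 or 2), EPRS1, FARSA, FARS2 or the scaffold gene AIMP1. The rule uses gene names only, although the group was taken up with earlier results of these data known. The rule found 39 of 22277 probe sets, standing for 27 of the 11963 genes measured. Of these genes 16 encode cytosolic synthetases, 10 have symbols ending in 2 and encode mitochondrial synthetases, and 1 is the scaffold gene AIMP1. A further 5 probe sets also carried the name of a second gene and were outside the rule.

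The arrays came from SJRH30 cells, a human rhabdomyosarcoma line grown in medium with 10% fetal bovine serum, so all groups are 1 line. Cells were taken at 0 h, before hypoxia began, and after 6, 12 and 24 h in 1% oxygen, with 2 arrays a time that the labels call biological replicates. Normoxic cells of the later times were not analysed here, and the effects of longer culture and of low oxygen cannot be told apart. Values are log2 RMA summaries, so 1 unit is a 2-fold difference in signal, and each is relative to the rest of its array; in bulk RNA, fewer cells of a type and less RNA per cell cannot be told apart.

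Replicate arrays correlated at 0.997 to 0.999 across genes, which are not independent replicates, and arrays of different times at 0.993 to 0.998. The labels call the cells muscle fibroblasts. Of 13 measured muscle genes, the regulator MYOD1 lay between 11.93 and 12.08 in the group means and FGFR4 between 11.41 and 11.52. ACTC1 lay between 13.62 and 13.83, CHRNA1 between 11.50 and 11.54 and MEF2C between 10.95 and 11.26. MYOG lay between 9.89 and 10.20, DES between 9.22 and 9.52 and CDH15 between 9.08 and 9.42. PAX3 lay between 7.51 and 7.81 and TNNT3 between 5.27 and 5.70. MYF5 lay between 4.09 and 4.47, MYF6 between 3.97 and 4.24, and PAX7 had a mean of 4.70 at 0 h. Of these genes 1 was called higher at 6 h (2.32% of all genes), 2 at 12 h (7.13%) and 2 at 24 h (8.59%). At 24 h 3 were called lower (9.15%). Of 11 fibroblast genes, COL3A1 lay between 10.68 and 11.01, COL1A1 between 8.12 and 8.35 and PDGFRA between 7.62 and 8.57, while DCN lay between 5.11 and 5.29 and POSTN between 3.57 and 3.70. PDGFRA rose at all 3 hypoxic times, by 0.95 at 24 h (limma adjusted p = 0.000122), and COL3A1 rose at 6 and 12 h; their part in the results was not tested. Of 7 leukocyte genes, PTPRC lay between 3.44 and 3.71 and CD3E between 5.89 and 6.09. Of 7 endothelial genes, EMCN lay between 3.99 and 4.07 and TEK between 7.81 and 8.18. TEK rose by 0.31 at 6 h (limma adjusted p = 0.031), was at 0.19 at 12 h (adjusted p = 0.0595) and at 0.37 at 24 h, the largest change of the endothelial list there. Of 8 epithelial genes, KRT19 lay between 3.80 and 4.31 and EPCAM between 6.61 and 7.02. Among them 1 was called higher at 12 h, MUC1 (0.37, limma adjusted p = 0.0351), and 1 at 24 h. All 10 measured genes of a list of known hypoxia targets rose at 6, 12 and 24 h, from LDHA, a lactate dehydrogenase gene (0.53, 0.67 and 0.66 on the log2 scale), to BNIP3, a mitophagy receptor gene (2.96, 3.33 and 3.31). Interquartile ranges over genes were 3.77 and 3.83 on the 12 h arrays and 3.91 to 3.97 on the others. The mean of 24 probe sets for added poly-A control RNA was 8.76 to 9.01 on the 6 arrays of hypoxic cells and 8.32 to 8.36 at 0 h. That of 18 probe sets for hybridization controls was 10.24 to 10.31 on the arrays of hypoxic cells and 10.05 to 10.07 at 0 h. The part of these control differences in the results was not tested.

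The promoters of these genes were read for the C/EBP-ATF element, the composite site through which ATF4 acts, whose core is TGATGCAA, or TTGCATCA on the other strand. The RefSeq promoter table (GRCh38.p14) held 34 windows for 24 of the 27 genes, each running from 250 bases before to 50 bases after a gene start; it gave none for YARS1, LARS1 and VARS1. Both strands were searched. The core was present in 5 of the 24 genes, all of them among the 13 cytosolic genes with a window and none among the 10 mitochondrial ones, against 1.08% of the 27305 genes in the table (0.866% of its 35116 windows). With any base at the 6th position, written TGATGNAA, which includes the first core, 7 of 24 genes matched, adding GARS1 and the mitochondrial YARS2, against 4.46% of genes. Stretches are shown for the 6 cytosolic genes with a match of either form, and were chosen for that match, which is in capitals. Each runs from 90 bases before to 30 bases after the start, save that of AARS1, which lies further upstream. They are chr7:30594788-30594907 (plus strand) for GARS1, chr5:33440875-33440994 (plus) for TARS1, chr9:92293668-92293787 (minus) for IARS1, chr11:3057394-3057513 (minus) for CARS1, chr16:70289637-70289756 (minus) for AARS1 and chr18:57621807-57621926 (minus) for NARS1.
GARS1: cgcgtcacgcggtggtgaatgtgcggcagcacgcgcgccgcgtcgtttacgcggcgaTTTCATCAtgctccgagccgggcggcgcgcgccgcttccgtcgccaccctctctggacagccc
TARS1: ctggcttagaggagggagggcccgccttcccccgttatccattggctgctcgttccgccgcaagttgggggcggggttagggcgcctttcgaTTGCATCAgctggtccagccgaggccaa
IARS1: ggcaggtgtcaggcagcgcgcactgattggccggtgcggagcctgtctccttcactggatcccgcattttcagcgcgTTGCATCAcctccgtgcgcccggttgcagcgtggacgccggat
CARS1: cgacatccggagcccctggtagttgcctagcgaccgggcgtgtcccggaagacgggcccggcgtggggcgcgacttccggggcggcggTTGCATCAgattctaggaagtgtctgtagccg
AARS1: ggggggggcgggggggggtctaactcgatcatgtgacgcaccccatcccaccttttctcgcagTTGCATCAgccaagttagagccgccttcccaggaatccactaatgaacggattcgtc
NARS1: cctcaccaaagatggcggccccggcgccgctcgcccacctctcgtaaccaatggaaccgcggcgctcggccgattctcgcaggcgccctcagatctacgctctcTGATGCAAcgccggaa

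**Figure D1:**
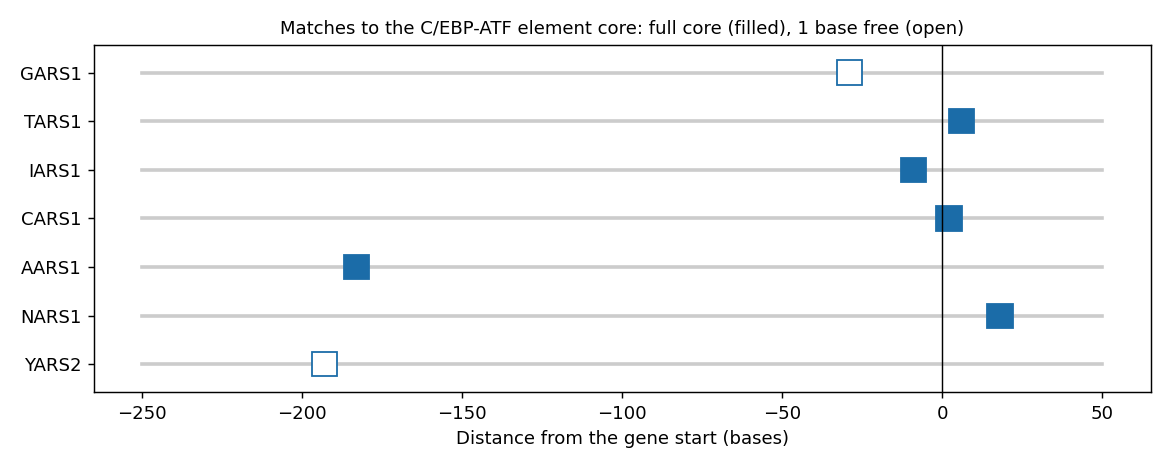
Position of matches to the C/EBP-ATF element core in the promoter windows of 7 synthetase genes, with distance from the gene start in bases on the horizontal axis; filled boxes match the full core and open boxes match with 1 base left free. The match began 33 bases before the start in GARS1, 13 in IARS1, 2 in CARS1 and 187 in AARS1, and 2 bases after it in TARS1 and 14 in NARS1, while that of the mitochondrial YARS2 lay 197 bases before.

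Other short motifs were close to or below the share of all genes. The core of the hypoxia response element, ACGTG on either strand, was in 6 of the 24 genes, against 24.9% of all genes in the table. Its palindromic extension CACGTG, an E-box that MYC and other factors bind, was in IARS1 and CARS2, 2 of 24 genes, against 8.77%. Such matches are letters in a window and no measurement of binding.

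Cytosolic synthetase genes were lower in hypoxia, with 9 of 16 below the 0 h level past the threshold at 12 h and 8 at 24 h. The threshold for a call was a limma p below 0.05 after Benjamini-Hochberg adjustment over all 11963 genes. None of the 27 genes was called higher at 12 or 24 h (0 and 2 were higher at an unadjusted p under 0.05, and an intensity trend in the variance called 1 at each). After 12 h, 11 of the 27 genes were called and all 11 were lower, namely YARS1, GARS1, FARSA, SARS1, AARS1, TARS1, IARS1, HARS1, CARS1, AIMP1 and the mitochondrial LARS2; among all genes 18.4% were called, 11.3% lower and 7.13% higher. After 24 h, 9 were called, again all lower, namely YARS1, GARS1, VARS1, AIMP1, IARS1, RARS1, CARS1, TARS1 and HARS1, against 17.7% of all genes called, 9.15% lower and 8.59% higher. These comparisons share the 0 h arrays. A moderated F-test for any difference among the 4 times picked 6 genes (YARS1, GARS1, AIMP1, IARS1, LARS2 and TARS1), against 16.2% of all genes. Without 0 h replicate 1 or 2 the counts were 2 and 2 at 12 h, 3 and 3 at 24 h and 0 and 0 for the F-test, where the remaining array was taken to be as variable as those of the other times. Without 12 h replicate 1 or 2 the count at 12 h was 4 or 5, without 24 h replicate 1 that at 24 h was 5, and without 6 h replicate 1 or 2 those at 12 h were 7 and 7, those at 24 h 6 and 6, and those of the F-test 3 and 3.

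**Figure D2:**
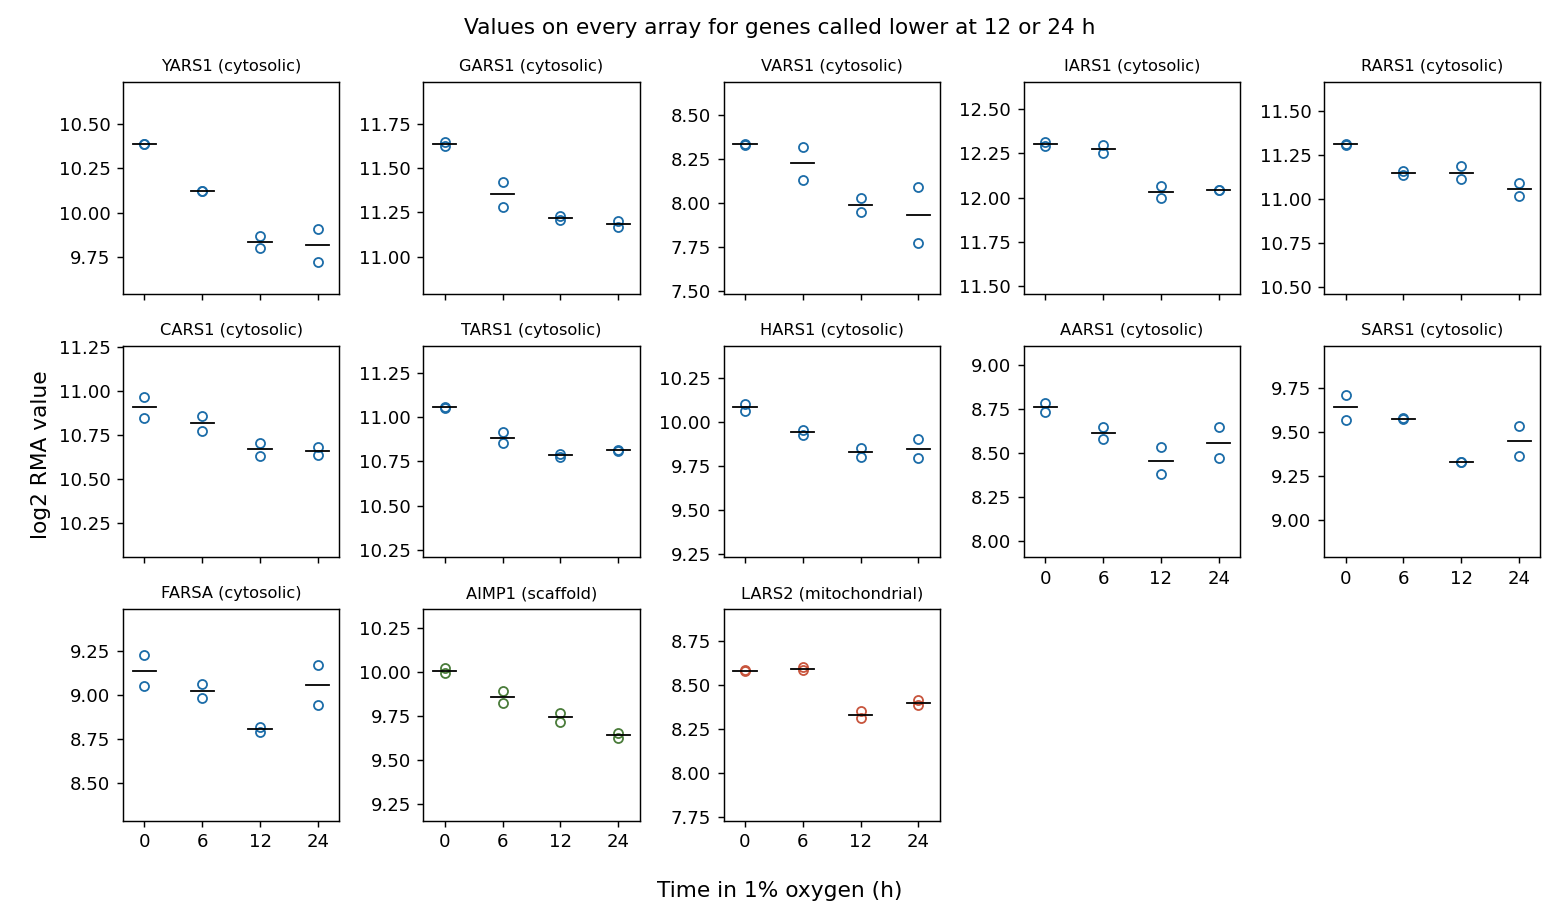
Log2 RMA value on each of the 8 arrays (open circles) and the mean of the 2 arrays of a time (bars) for the 13 genes called lower at 12 or 24 h, against time in 1% oxygen; every panel spans the same range of log2 units around its own 0 h mean. YARS1 went lowest relative to its start, and FARSA at 24 h overlapped its 0 h arrays.

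YARS1, which encodes the tyrosyl-tRNA synthetase, showed the largest fall of the 27 genes at 12 and 24 h. Its values were 10.39 and 10.39 at 0 h, 10.12 and 10.12 at 6 h, 9.80 and 9.87 at 12 h, and 9.72 and 9.91 at 24 h. All 6 hypoxic arrays lay below both 0 h arrays, and the 24 h arrays differed from each other more than those of other times. The change was -0.27 ± 0.07 at 6 h (SE, n = 2 arrays a time; limma adjusted p = 0.0976), -0.55 ± 0.07 at 12 h (adjusted p = 0.00287) and -0.57 ± 0.07 at 24 h (adjusted p = 0.00208), or 1.49-fold lower at 24 h.

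GARS1, the glycyl-tRNA synthetase gene that serves both the cytosol and the mitochondrion, was at 11.65 and 11.63 at 0 h, 11.28 and 11.42 at 6 h, 11.23 and 11.21 at 12 h, and 11.17 and 11.20 at 24 h. Its hypoxic arrays did not overlap those of 0 h at any time. It was at -0.29 ± 0.06 at 6 h, the lowest adjusted p of the 27 genes there (0.0545, limma), and fell by 0.42 at 12 h (adjusted p = 0.00483) and by 0.45 at 24 h (adjusted p = 0.00305). The calls of YARS1 and GARS1 at 12 and 24 h held without any 1 of the 8 arrays, with YARS1 between -0.67 and -0.48 at 24 h and GARS1 between -0.47 and -0.43.

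AIMP1, the scaffold component of the multisynthetase complex that is also processed into a secreted cytokine, had values of 10.00 and 10.02 at 0 h, 9.83 and 9.90 at 6 h, 9.72 and 9.77 at 12 h, and 9.66 and 9.63 at 24 h. The 2 arrays of each time lay below both arrays of the time before. The change was -0.15 ± 0.06 at 6 h (limma adjusted p = 0.207), -0.26 ± 0.06 at 12 h (adjusted p = 0.0173) and -0.37 ± 0.06 at 24 h (adjusted p = 0.0045). The 24 h call held without any 1 of the 8 arrays, and that at 12 h was lost without either 0 h array or 12 h replicate 1. A dimmer probe set of AIMP1, in a fit over all probe sets, gave -0.17 at 12 h (adjusted p = 0.139) and -0.26 at 24 h (adjusted p = 0.0451).

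Among the other synthetases of the complex, IARS1 (isoleucyl) was at 12.32 and 12.29 at 0 h, 12.30 and 12.25 at 6 h, 12.00 and 12.07 at 12 h, and 12.04 and 12.04 at 24 h. Its 6 h arrays overlapped those of 0 h and its later arrays did not, with changes of -0.03 at 6 h, -0.27 ± 0.05 at 12 h (limma adjusted p = 0.0149) and -0.26 ± 0.05 at 24 h (adjusted p = 0.017). RARS1 (arginyl) stood at 11.31 and 11.31 at 0 h, 11.14 and 11.16 at 6 h, 11.19 and 11.11 at 12 h, and 11.02 and 11.09 at 24 h. Its hypoxic arrays all lay below those of 0 h, and it was called at 24 h (-0.26 ± 0.06, limma adjusted p = 0.0206) and not at 12 h (-0.16, adjusted p = 0.0895). EPRS1, which joins glutamyl- and prolyl-tRNA synthetase in 1 protein, was at -0.17 at both 12 and 24 h without a call (limma adjusted p = 0.0849 and 0.0933). Of its other probe sets, 1 passed at 12 h in the fit over all probe sets (-0.22, adjusted p = 0.0466) and 1 did not (-0.03).

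KARS1 (lysyl) and LARS1 (leucyl), also of the complex, were the cytosolic genes without a decrease at 6 and 12 h. KARS1 was at 12.83 and 12.83 at 0 h, 12.90 and 12.84 at 6 h, 12.86 and 12.87 at 12 h, and 12.83 and 12.82 at 24 h, with changes of 0.04, 0.04 and -0.00 (limma adjusted p = 0.737, 0.653 and 0.997). A dimmer KARS1 probe set gave -0.05, -0.14 and -0.07, none called. LARS1 was at 0.07, 0.07 and 0.05 (adjusted p = 0.592, 0.45 and 0.607); its single probe set is of the x type, whose probes can also match other transcripts. Of the 6 measured genes of the complex 2 were called lower at 12 h and 3 at 24 h, with medians of -0.17 and -0.21, and of the 11 cytosolic genes outside it 8 and 6, with medians of -0.30 and -0.24; the difference was not tested.

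Of the cytosolic enzymes outside the complex, TARS1 (threonyl) gave values of 11.05 and 11.06 at 0 h, 10.85 and 10.92 at 6 h, 10.79 and 10.77 at 12 h, and 10.82 and 10.81 at 24 h. No hypoxic array reached the 0 h values, and it changed by -0.17 at 6 h (limma adjusted p = 0.131), -0.27 ± 0.05 at 12 h (adjusted p = 0.0129) and -0.24 ± 0.05 at 24 h (adjusted p = 0.0191).

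HARS1 (histidyl) was at 10.10 and 10.06 at 0 h, 9.93 and 9.96 at 6 h, 9.80 and 9.86 at 12 h, and 9.79 and 9.90 at 24 h, also without overlap. It fell by 0.25 at 12 h (limma adjusted p = 0.0253) and by 0.24 at 24 h (adjusted p = 0.0332). Leaving out 1 array gave -0.28 to -0.23 at 12 h and -0.29 to -0.18 at 24 h. The HARS1 call at 12 h was lost without either 0 h array or either 12 h array. That at 24 h was lost without either 0 h array, either 6 h array or 24 h replicate 1. CARS1 (cysteinyl) was at 10.97 and 10.85 at 0 h, 10.77 and 10.86 at 6 h, 10.63 and 10.71 at 12 h, and 10.68 and 10.63 at 24 h. The 6 h arrays overlapped those of 0 h, and the changes of -0.24 at 12 h and -0.25 at 24 h passed narrowly (limma adjusted p = 0.0441 and 0.0387). The 12 h call was lost without any 1 of the 8 arrays, and that at 24 h was kept only without a 12 h array. A dimmer CARS1 probe set fell in the fit over all probe sets, by 0.54 at 12 h (adjusted p = 0.00444) and by 0.46 at 24 h (adjusted p = 0.00747).

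VARS1 (valyl) was at 8.33 and 8.34 at 0 h, 8.13 and 8.32 at 6 h, 7.95 and 8.03 at 12 h, and 7.77 and 8.09 at 24 h. Its hypoxic arrays all lay lower than those of 0 h, but its 24 h arrays differed by more than those of any other called gene. The change was -0.35 ± 0.11 at 12 h (limma adjusted p = 0.0627) and -0.40 ± 0.11 at 24 h (adjusted p = 0.0396). Leaving out 1 array gave -0.56 to -0.24 at 24 h. That call was lost without 24 h replicate 1, either 0 h array or either 6 h array, and with the mean of its probe sets. A dimmer probe set of VARS1 was at -0.05 and -0.20, neither called.

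AARS1 (alanyl), SARS1 (seryl) and FARSA, the catalytic subunit gene of the phenylalanyl enzyme, were called at 12 h and not at 24 h. AARS1 was at 8.78 and 8.74 at 0 h, 8.58 and 8.65 at 6 h, 8.38 and 8.53 at 12 h, and 8.47 and 8.65 at 24 h, a change of -0.30 ± 0.08 at 12 h (limma adjusted p = 0.0363) and -0.20 ± 0.08 at 24 h (adjusted p = 0.133). SARS1 was at 9.57 and 9.71 at 0 h, 9.58 and 9.57 at 6 h, 9.33 and 9.33 at 12 h, and 9.36 and 9.53 at 24 h. Its 12 and 24 h arrays lay below those of 0 h, at -0.31 (limma adjusted p = 0.0287) and -0.19 (adjusted p = 0.136).

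FARSA was at 9.22 and 9.05 at 0 h, 9.06 and 8.98 at 6 h, 8.79 and 8.82 at 12 h, and 8.94 and 9.17 at 24 h. Only its 12 h arrays stood clear of 0 h, at -0.33 ± 0.09 (limma adjusted p = 0.0412), and its other probe set was at -0.01 at 12 h and 0.16 at 24 h, so the probe sets of FARSA disagree. None of these 3 calls held after further quantile normalization (limma adjusted p = 0.0540 for AARS1, 0.0551 for SARS1 and 0.0618 for FARSA), and the 12 h arrays are those with the narrower spread. Nor did any hold in a fit of only the 2 times compared. Leaving out 1 array gave -0.38 to -0.23 at 12 h for AARS1, -0.38 to -0.24 for SARS1 and -0.42 to -0.24 for FARSA. NARS1 (asparaginyl) and WARS1 (tryptophanyl) were not called at any time, at -0.16 and -0.15 at 12 h and -0.19 and -0.08 at 24 h.

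**Figure D3:**
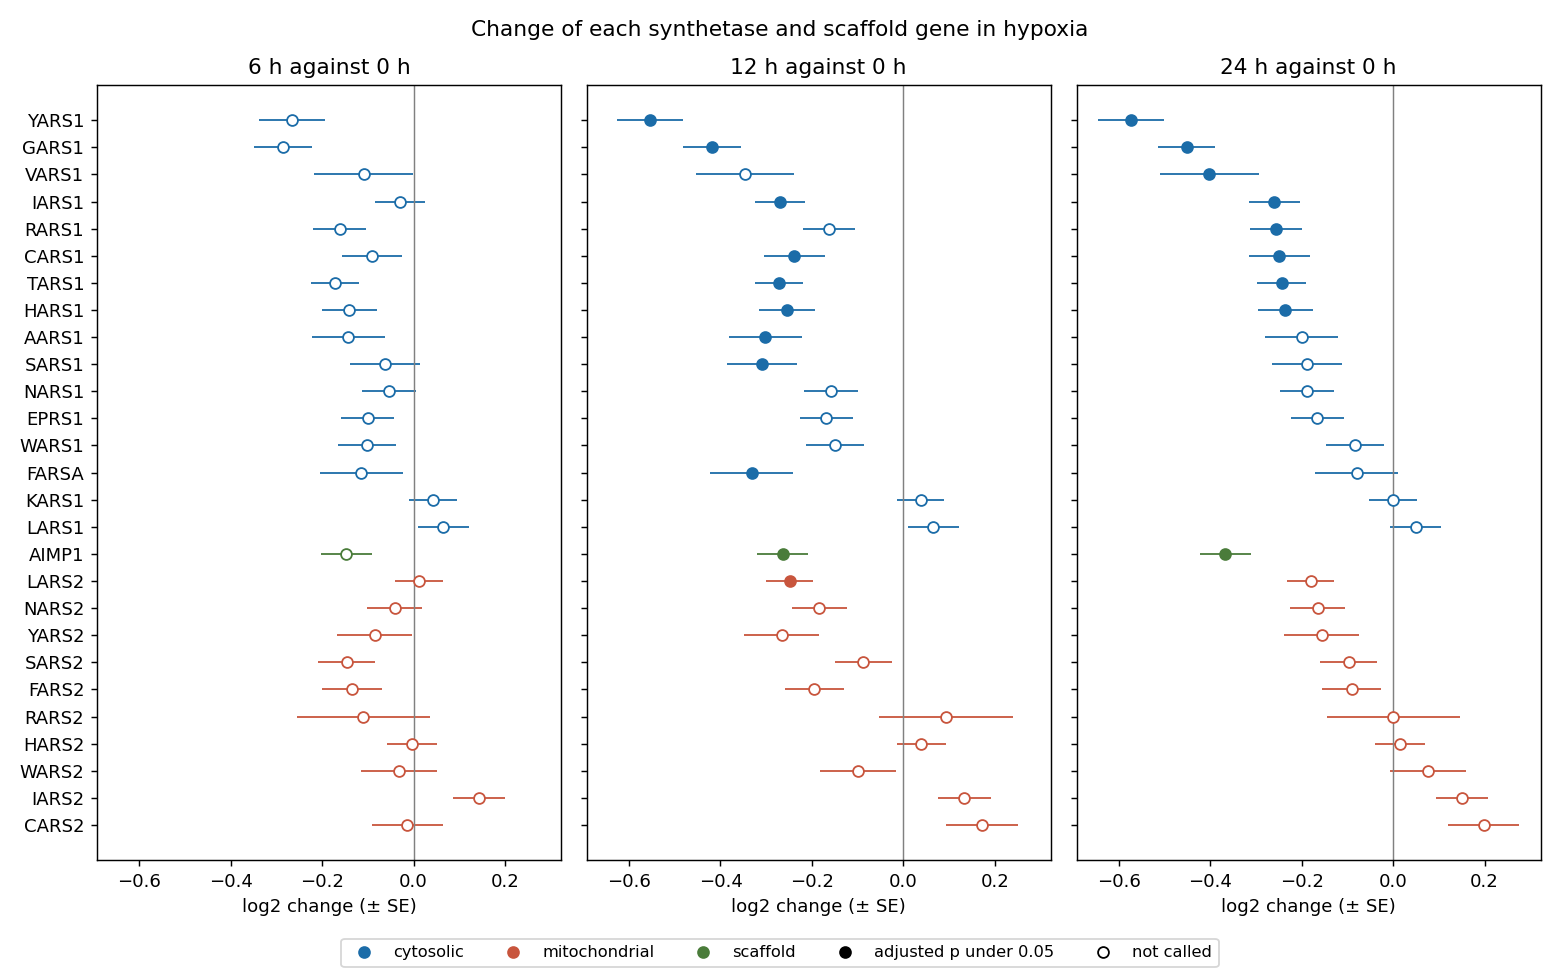
Log2 change from 0 h with its standard error for the 27 genes at 6, 12 and 24 h, cytosolic genes above, then AIMP1, then mitochondrial genes, each ordered by the 24 h change; filled points passed an adjusted p under 0.05. At 12 and 24 h the filled points all lie left of 0, and 1 of them is mitochondrial (LARS2 at 12 h).

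After 6 h none of the 27 genes passed in limma, against 3.54% of all genes called, 1.22% lower and 2.32% higher. At an unadjusted p under 0.05 there were 8, of which 7 were lower and IARS2 was higher. In a fit of only the 6 and 0 h arrays there were 9 of the 27 genes, against 2898 of all 11963. The direction at 6 h was already mostly downward. Both arrays of 6 h lay below both of 0 h for 14 of the 27 genes, against 31.6% of all genes, and above for 4, against 23.6%. At 12 h the corresponding numbers were 21 lower, against 34.2% of all genes, and 5 higher, against 29.6%, and at 24 h 19 lower, against 32.3%, and 3 higher, against 26.6%. The median change of the 27 genes was -0.10 at 6 h, -0.19 at 12 h and -0.17 at 24 h, with all genes at -0.02, 0.00 and -0.01.

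Of the 16 cytosolic genes 10 lay lower in this way at 6 h, 14 at 12 h and 13 at 24 h, against 31.6%, 34.2% and 32.3% of all genes. Those lying higher were 2, 2 and 1 of 16, against 23.6%, 29.6% and 26.6%. The median change of the 16 genes was -0.11 at 6 h, -0.26 at 12 h and -0.22 at 24 h. In all, 9 of 16 were called lower at 12 h and 8 of 16 at 24 h. Of the 16, 12 were in the brightest 25% of genes by array signal, where 16.2% of genes were called lower at 12 h and 13.9% at 24 h. Further quantile normalization left 5 cytosolic genes called lower at 12 h and 8 at 24 h, and centring each array on its median 6 and 8. The cytosolic mean per array was 10.53 and 10.51 at 0 h, 10.40 and 10.43 at 6 h, 10.27 and 10.30 at 12 h, and 10.26 and 10.35 at 24 h.

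Mitochondrial synthetase genes lay on both sides of 0, with 8 of 10 below it at 6 h and 6 of 10 at 12 and 24 h. Both arrays lay below both of 0 h for 3, 6 and 5 of the 10, against 31.6%, 34.2% and 32.3% of all genes. They lay above for 2, 3 and 2, against 23.6%, 29.6% and 26.6%. The difference from the cytosolic genes was not tested. The median change of the mitochondrial genes was -0.04 at 6 h, -0.09 at 12 h and -0.05 at 24 h. Changes ran from -0.27 to 0.17 at 12 h and from -0.18 to 0.20 at 24 h. In limma 1 of 10 was called at 12 h, against 18.4% of all genes, and 0 of 10 at 24 h, against 17.7%. At an unadjusted p under 0.05 there were 4 at 12 h, all lower, and 4 at 24 h, of which 2 were lower and 2 higher. LARS2 (mitochondrial leucyl) was at 8.58 and 8.58 at 0 h, 8.60 and 8.58 at 6 h, 8.35 and 8.31 at 12 h, and 8.39 and 8.41 at 24 h. The 6 h arrays did not lie below those of 0 h, and the later ones did, at -0.25 ± 0.05 at 12 h (limma adjusted p = 0.0165) and -0.18 ± 0.05 at 24 h (adjusted p = 0.0506). Its second probe set gave -0.20 and -0.19, just short of a call in the fit over all probe sets (adjusted p = 0.0528 and 0.0732).

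IARS2 and CARS2, the mitochondrial isoleucyl and cysteinyl enzymes, lay on the other side of 0. IARS2 was at 11.05 and 11.06 at 0 h, 11.22 and 11.18 at 6 h, 11.14 and 11.23 at 12 h, and 11.23 and 11.18 at 24 h. Its 6 hypoxic arrays all lay above those of 0 h, with changes of 0.14, 0.13 and 0.15 that did not pass (limma adjusted p = 0.23, 0.151 and 0.12). CARS2 was at 7.77 and 7.66 at 0 h, 7.67 and 7.73 at 6 h, 7.81 and 7.96 at 12 h, and 7.85 and 7.97 at 24 h. It did not separate from 0 h until 12 h and stood at 0.17 at 12 h and 0.20 at 24 h (limma adjusted p = 0.169 and 0.129).

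The remaining mitochondrial genes were not called. YARS2 (tyrosyl) was at -0.27 ± 0.08 at 12 h (limma adjusted p = 0.0614), NARS2 (asparaginyl) at -0.18 (adjusted p = 0.0715) and FARS2 (phenylalanyl) at -0.19 (adjusted p = 0.078). A dimmer FARS2 probe set passed at 12 h (-0.39, adjusted p = 0.0262 in the fit over all probe sets), while the dimmest was at 0.21. SARS2 (seryl), WARS2 (tryptophanyl) and HARS2 (histidyl) were between -0.10 and 0.08 at 12 and 24 h. RARS2 (arginyl) read 3.35 to 3.74 on all arrays, at the low end of the array's scale, so little can be read from its changes of -0.11, 0.09 and -0.00.

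For 10 amino acids both a cytosolic and a mitochondrial gene were measured, which allows the pairs to be set side by side, although the difference within a pair was not tested. The cytosolic gene had the lower change in 7 of 10 pairs at 6 h and in 8 of 10 at 12 h and at 24 h. Each count includes RARS1 and RARS2, the latter at the low end of the array's scale. That at 12 h includes FARSA, whose other probe set was at -0.01, against -0.19 for FARS2. At 24 h NARS1 and NARS2 were close (-0.19 and -0.17), as were FARSA and FARS2 in the other direction (-0.08 and -0.09). At 24 h the tyrosine pair stood at -0.57 (YARS1) and -0.16 (YARS2), the cysteine pair at -0.25 (CARS1) and 0.20 (CARS2), and the isoleucine pair at -0.26 (IARS1) and 0.15 (IARS2). The leucine pair ran the other way, with 0.05 for LARS1 and -0.18 for LARS2. HARS1 and HARS2 are neighbouring genes on opposite strands of chromosome 5; HARS1 stood at -0.25 and -0.24 at 12 and 24 h, and HARS2 at 0.04 and 0.02.

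**Figure D4:**
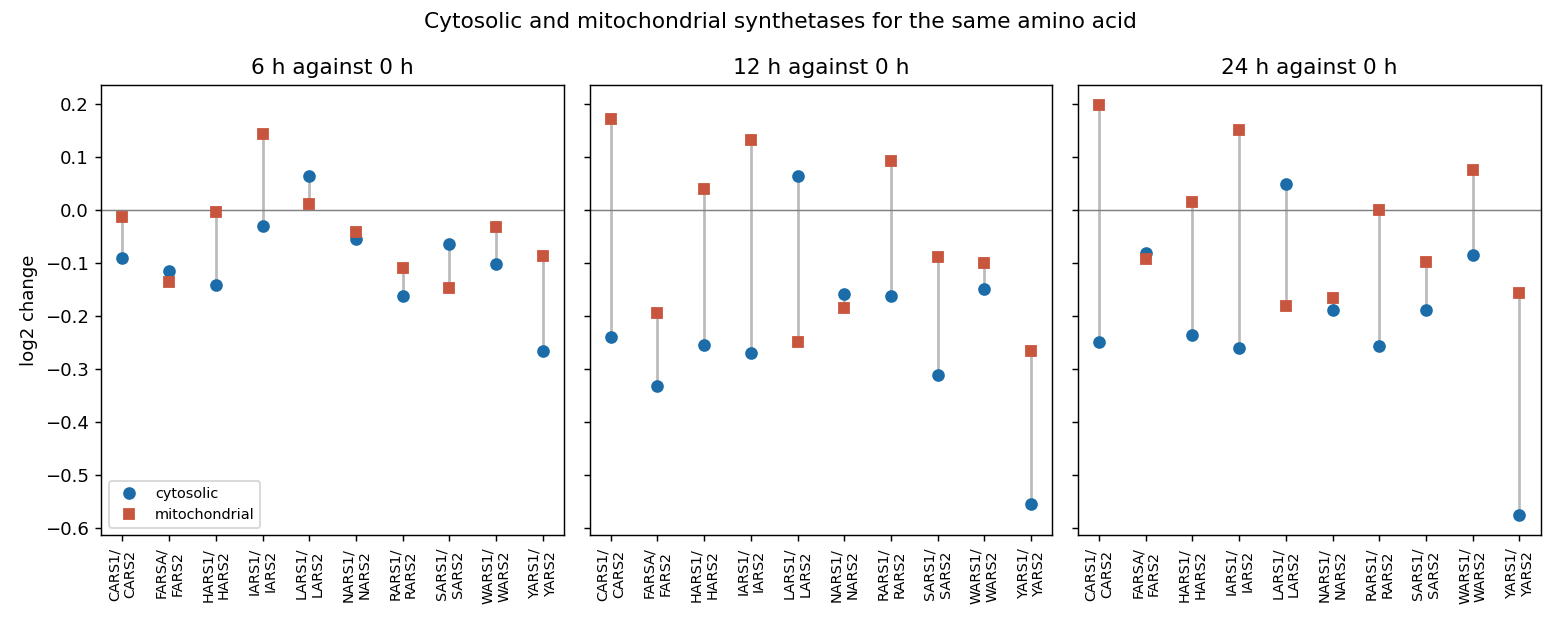
Log2 change from 0 h at 6, 12 and 24 h of the cytosolic gene (circle) and the mitochondrial gene (square) for each of 10 amino acids, joined by a line. At 24 h the circle lies below the square in 8 of 10 pairs, furthest apart for cysteine, tyrosine and isoleucine.

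Between hypoxic times no synthetase gene passed in limma. From 6 to 12 h 0 of 27 were called, against 0.201% of all genes called. From 6 to 24 h 0 were called, against 2.78%, and from 12 to 24 h 0, against 0.242%. At an unadjusted p under 0.05 in the same fit there were 7, 8 and 1 of the 27 genes. In a fit of only the 2 times compared there were 6, 6 and 1, against 2491, 1979 and 1370 of all 11963 genes. The median change of the 16 cytosolic genes was -0.12 from 6 to 12 h, -0.09 from 6 to 24 h and -0.00 from 12 to 24 h. From 12 to 24 h FARSA was at 0.25 (adjusted p = 0.223), and the other 15 cytosolic genes between -0.09 and 0.12.

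Related gene lists are given for comparison, beside which 11.3% of all genes were called lower and 7.13% higher at 12 h, and 9.15% lower and 8.59% higher at 24 h. Of 12 measured synthetases that are commonly listed as ATF4 targets 7 were called lower at 12 h and 6 at 24 h, with medians of -0.27 and -0.22; of the 4 other cytosolic genes, FARSA, HARS1, KARS1 and RARS1, 2 and 2 were called lower, with medians of -0.21 and -0.16. In a list of ATF4 and its amino acid response genes, 9 of 30 fell at 6 h (1.22% of all genes), 14 at 12 h and 16 at 24 h, while 1 rose at 12 h and 2 at 24 h. ATF4 itself, singled out after its values were seen, fell by 0.50, 0.73 and 0.77 (limma adjusted p = 0.00558, 0.000464 and 0.000269). ASNS (asparagine synthetase) fell by 0.54, 0.95 and 1.05, TRIB3 (a pseudokinase induced by ATF4) by 0.57, 0.92 and 0.89, and CEBPG (a partner of ATF4 on its sites) by 0.53, 1.03 and 0.85. PCK2 (mitochondrial phosphoenolpyruvate carboxykinase) and CBS (cystathionine synthesis) rose at 24 h, by 0.36 and 0.33.

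Of 17 amino acid transporter genes 3 fell at 12 h, near the 11.3% of all genes, and 5 at 24 h, against 9.15%. The cystine carrier SLC7A11 was at -0.62 ± 0.09 at 24 h (limma adjusted p = 0.00397), SLC38A4 at -0.43 and the neutral amino acid carrier SLC38A1 at -0.35. All 3 genes called at 12 h (SLC7A11, SLC1A5 and SLC38A2) were called again at 24 h and are also in the ATF4 list. SLC1A4, SLC3A2, SLC7A1 and SLC7A5 are in both lists too, so the lists are not separate groups. Among cytosolic translation factors 9 of 25 fell at 12 h (11.3% of all genes) and 9 at 24 h (9.15%), while 1 rose at 12 h (7.13%) and 2 at 24 h (8.59%). The initiation factor gene EIF5 fell by 0.62 and 0.55, the ribosome recycling factor gene ABCE1 by 0.36 and 0.36, and EIF4G1 was at -0.34 (limma adjusted p = 0.0572) and -0.38 (adjusted p = 0.0376); EIF4B and the elongation factor gene EEF2 rose at 24 h by 0.27 and 0.20.

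Mitochondrial translation factors and accessory genes of transfer RNA charging fell in 5 of 16 at 12 h, against 11.3% of all genes, and in 4 of 16 at 24 h, against 9.15%. QRSL1, a subunit of the enzyme that makes mitochondrial glutaminyl-tRNA by amidation, fell by 0.65 and 0.38, MRPL58 (a peptidyl-tRNA hydrolase of the mitochondrial ribosome) by 0.54 and 0.48, and MTIF2 (an initiation factor) by 0.26 and 0.27. GATC, another subunit of the enzyme of QRSL1, was at 0.04 at 12 h and rose by 0.26 at 24 h. Of 37 genes of transfer RNA processing and modification 10 fell at 12 h (11.3% of all genes) and 10 at 24 h (9.15%), and 1 rose at each time (7.13% and 8.59%). RPP40 and POP1, subunits of ribonuclease P, fell by 0.45 and 0.37 at 12 h and by 0.48 and 0.35 at 24 h, and the methyltransferase gene TRMT1 by 0.35 and 0.35, while TSEN34, a splicing endonuclease subunit gene, rose by 0.31 and 0.43. Median changes of these lists at 24 h ran from -0.27 for the ATF4 list to -0.12 for the mitochondrial factors.

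**Figure D5:**
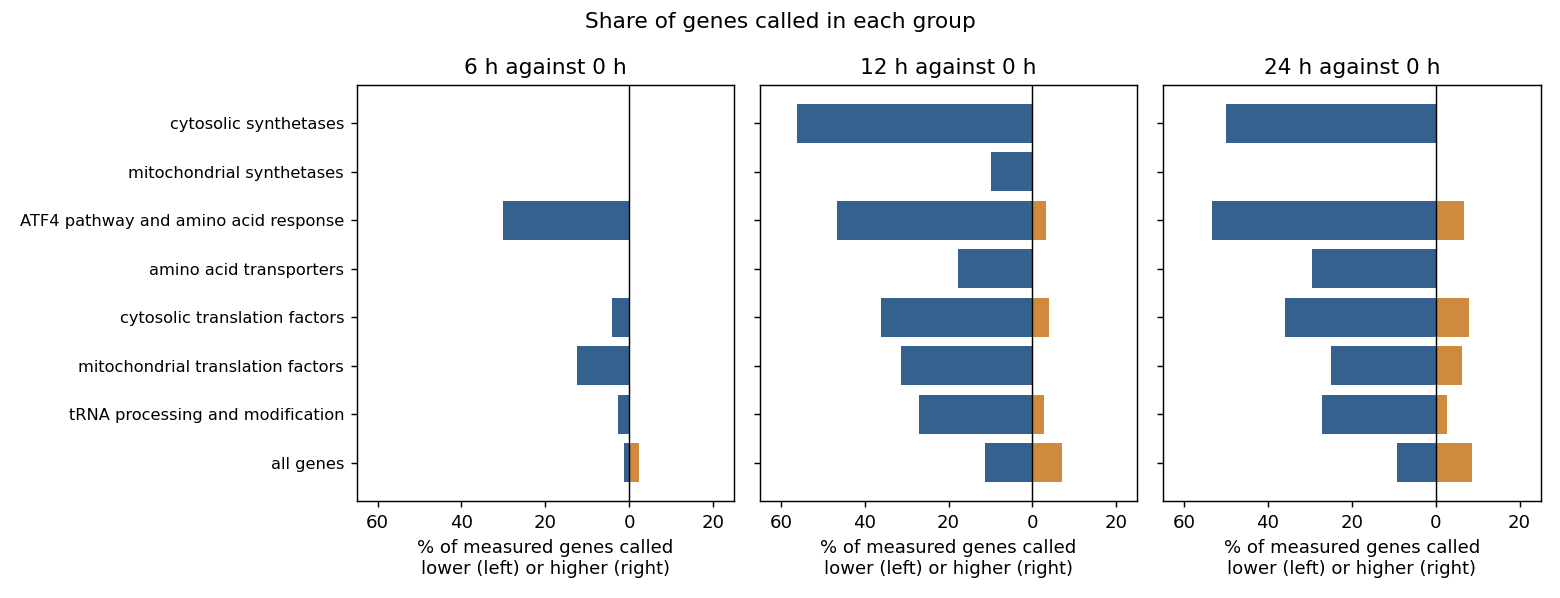
Percentage of measured genes called lower (bars to the left) and higher (bars to the right) at 6, 12 and 24 h against 0 h. Rows are the synthetase groups, 5 related gene lists and all 11963 genes. The transporter and ATF4 lists share genes. At 24 h the cytosolic synthetases (8 of 16 lower) and the ATF4 list (16 of 30 lower) have the longest bars to the left, while 9.15% of all genes were called lower.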

How the data were processed

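The authors deposited log2 probe set values made with RMA, per the submitters' processing notes; no source used here gives its version or software. RMA normally includes quantile normalization, which removes differences in total messenger RNA. The number of arrays, not depth, limits the precision. The 2016 platform annotation named the probe sets (19064 with 1 symbol, 1043 with several, 2108 not listed, 62 controls kept apart). Each gene was represented by its probe set with the highest mean; 10 of the 27 genes had several. A linear model with 1 mean for each of the 4 times was fitted in limma 3.58.1 (R 4.3.3; lmFit, eBayes), two-sided, and was tested on simulated data. Beyond calling the replicates biological, the labels do not say how they were separated, so p-values measure the spread between these samples, which may be technical. The genes and lists were chosen with earlier results of these data known, and the promoter motifs after the expression results. Genes called against 0 h are given by array; from each list up to 3 called genes in each direction with the largest change at 24 h are named. Alternatives were all probe sets, the mean of a gene's probe sets, a filter on dim genes, an intensity trend, further quantile normalization, median centring, a fit of only the times compared, the replicate block and leaving out each array.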

Additional observations from a re-analysis of the deposited data

How the results depend on the processing

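The counts of synthetase and scaffold genes called (0 at 6 h, 11 at 12 h and 9 at 24 h against 0 h, 6 in the F-test, 0 between hypoxic times) depended most on the variance model and on single arrays. An intensity trend in the variance gave 5, 18 and 15 against 0 h, 17 in the F-test, and 4 for both 12 h and 24 h against 6 h. Without the dimmest 25% of genes the counts were 1 at 6 h, 11 in the F-test, 1 for 12 h against 6 h and 3 for 24 h against 6 h. Further quantile normalization gave 7 at 12 h. The mean of all probe sets of a gene and a fit of only the 2 times compared each gave 1 at 6 h. Leaving out 1 array gave 0 to 1 at 6 h (1 without either 24 h array), 2 to 11 at 12 h, 3 to 9 at 24 h and 0 to 8 in the F-test; the comparisons between hypoxic times stayed at 0. The labels do not say that replicate numbers pair the arrays, and deviations of same-numbered arrays correlated at -0.11 to 0.09; the replicate block gave 0, 10 and 8 against 0 h and 4 in the F-test. The causes were not tested. Over the 20 calls and 16 alternatives (320 combinations), 237 kept the call and 83 lost it, 15 of 20 without either 0 h array; none changed sign. With 2 arrays a time, small changes of the mitochondrial genes may pass undetected.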
